A study of Mus musculus with 4 samples.

Results

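The 10 genes Dusp1, Dusp2, Dusp3, Dusp4, Dusp5, Dusp6, Dusp7, Dusp10, Dusp14 and Dusp16 encode dual-specificity phosphatases that act on MAP kinases. They were taken from the deposited table by exact match of the gene symbol, which gave 10 rows of 34745, and all 10 passed the filter on low counts that left 11841 genes for testing. RNA had been sequenced from peritoneal macrophages of wildtype C57BL/6 mice, adherent cells collected from the abdominal cavity of mice given thioglycolate medium. The sources used here give neither the age nor the sex of the mice. The DMSO group of 2 libraries received the solvent DMSO and the MB-3 group of 2 libraries received MB-3 at 50 µM, and in both groups LPS at 100 ng/ml followed for 4 hours. Both groups therefore carry the LPS stimulus, and no cells without it were analysed here. MB-3 is known as a butyrolactone inhibitor of GCN5, a lysine acetyltransferase encoded by Kat2a in mice. Bone marrow-derived macrophages are named in the series title, but each of the 4 sample labels names peritoneal cells, and these labels were used. Nothing in the labels says whether the replicates came from separate animals or cultures, so p-values measure the spread between these libraries, which may be technical.

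LPS acts through Toll-like receptor 4 and switches on the MAP kinases ERK, JNK and p38, which drive the transcription, stability and translation of cytokine messages. Dual-specificity phosphatases end that signal by removing phosphate from both the threonine and the tyrosine of a kinase's activation loop. Many of their genes are themselves induced by the kinases that they switch off, so they form a negative feedback. The family falls into nuclear inducible enzymes, cytoplasmic enzymes that prefer ERK, enzymes that prefer JNK and p38, and small atypical enzymes that lack the kinase-binding domain. In macrophages Dusp1 is the best studied member, known in mice as a brake on p38 and on cytokine output after LPS.

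The libraries held 15598531 to 21320618 counts, and 14323 to 14715 genes had at least 1 count. The macrophage marker Lyz2 was at 21840 ± 404 CPM with DMSO (counts scaled to library size, with TMM factors; SD, n = 2) and at 28300 ± 5.46 CPM with MB-3, and Adgre1, which encodes the macrophage antigen F4/80, was between 320 and 367 CPM in the 4 libraries. Of 8 macrophage markers 4 were higher and 3 lower with MB-3, beside 37.1% called over all genes. Itgam rose 3.44-fold, while Fcgr1 fell 5.22-fold, Mertk 2.58-fold and Cd14 1.97-fold. Among markers of other cells, Cd3e was between 0 and 0.112 CPM and Ly6g at 0 in all libraries. Of those above 5 CPM in every DMSO library, Lck, a kinase gene of lymphocytes, fell from 16.8 to 2.01 CPM, S100a8, which is abundant in neutrophils, fell from 21.8 to 10.7 CPM, and Dcn, Pdgfra and Siglecf did not pass. The 5 T cell markers summed to 4.06 and 4.28 FPKM (counts scaled to gene length and library total, as deposited) with DMSO and to 0.546 and 1.15 with MB-3. Lck alone gave 3.70 and 3.56 FPKM of this with DMSO and 0.425 and 0.417 with MB-3. The 6 neutrophil markers summed to 22.2 and 23.5 FPKM with DMSO and to 12.0 and 10.4 with MB-3. S100a8 alone gave 22.1 and 22.8 FPKM of this with DMSO and 11.9 and 9.56 with MB-3. The falls of the T cell and neutrophil sums were thus mainly those of Lck and S100a8. The 6 mesothelial and fibroblast markers summed to 20.1 and 41.9 FPKM with DMSO and to 25.8 and 51.6 with MB-3, so replicate 2 was the higher library in both groups. Of 5 B cell, 5 dendritic cell and 4 eosinophil markers, 2, 1 and 1 were tested and none was called, with the most abundant, Cd79a, Zbtb46 and Siglecf, at 0.616, 2.55 and 6.79 CPM with DMSO and at 0.335, 4.02 and 6.59 CPM with MB-3. No NK cell or mast cell marker was abundant enough to test, and Gzma and Tpsb2 were at 0.0627 CPM or less and 1.06 CPM or less in every library. Dcn, the most abundant fibroblast marker, was at 39.5 and 80.1 CPM with DMSO and at 52.2 and 99.7 CPM with MB-3. The part of these other cells in the results below was not tested. In bulk RNA a change in the number of cells of a type cannot be told apart from a change of RNA per cell.

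The comparison asked how the phosphatase genes of LPS-stimulated macrophages differed after MB-3. Of the 10 genes, 3 were higher with MB-3 (Dusp1, Dusp4 and Dusp3), 2 were lower (Dusp16 and Dusp14) and 5 did not pass the threshold of 0.05 on p-values from edgeR's quasi-likelihood test, adjusted by Benjamini-Hochberg over all genes tested. Over all genes tested 37.1% were called, 16.9% as higher and 20.2% as lower, so the 50.0% of the phosphatase genes rests on 5 genes beside a high background. For 7 of the 10 genes the groups were apart in CPM, with MB-3 higher for 3 and lower for 4, against 70.8% of all genes tested (33.8% higher and 37.0% lower), a share close to the 70.0% of the 10 genes. The median log2 fold change of the 10 genes was -0.18, beside -0.01 over all genes tested. Their median absolute log2 fold change was 0.76 beside 0.39, a comparison that was not matched for level and not tested. The number of lower genes was 1 without DMSO replicate 1, without DMSO replicate 2 or without MB-3 replicate 1, because Dusp14 lost its call. The genes were not abundant, with a median of 8.99 CPM, and 3 of the 10 lay above the median of 18.6 CPM of all genes tested.

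**Figure D1:**
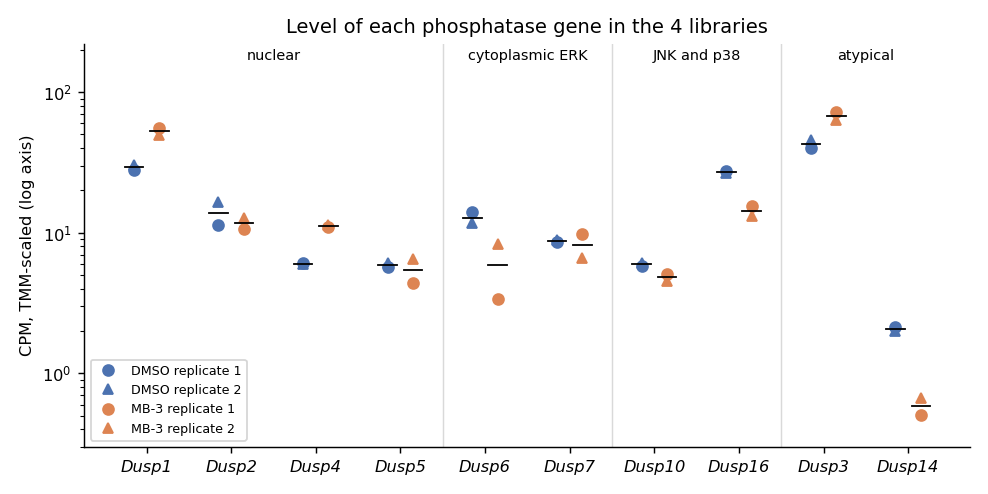
CPM of the 10 phosphatase genes on a log axis in each of the 4 libraries (circles, replicate 1; triangles, replicate 2; black lines, group means), ordered by role. The DMSO and MB-3 libraries lie apart for 7 genes and overlap for Dusp2, Dusp5 and Dusp7, and the MB-3 libraries of Dusp6, at 3.41 and 8.31 CPM, lie far from each other.

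Among the nuclear inducible enzymes Dusp1 and Dusp4 were higher with MB-3, while Dusp2 and Dusp5 did not pass the threshold. Dusp1 (ENSMUSG00000024190), whose enzyme switches off p38 and JNK, was covered by 601 and 485 counts in the DMSO libraries and by 1002 and 892 in the MB-3 libraries. This equals 28.01 and 30.4 CPM with DMSO and 56.0 and 49.8 CPM with MB-3. Both MB-3 libraries were well above both DMSO libraries, and replicates differed by at most 1.13-fold. The group means were 29.2 ± 1.68 and 52.9 ± 4.40 CPM (SD, n = 2), a 1.81-fold rise (log2 fold change 0.86, SE 0.11, edgeR adjusted p = 0.00147). Its position is chromosome 17 at 26505590 to 26508519 in the deposited coordinates (mm10).

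Dusp4 (ENSMUSG00000031530), which encodes a nuclear phosphatase closely related to DUSP1, was at 6.06 and 5.95 CPM with DMSO and at 11.1 and 11.4 CPM with MB-3. The groups did not overlap, and the replicates of Dusp4 lay closer together than those of any other of the 10 genes, within 1.02-fold and 1.03-fold. Its 1.87-fold rise (log2 fold change 0.90, SE 0.16, edgeR adjusted p = 0.00612) was about as large as that of Dusp1 and rested on 225 counts with DMSO and 403 with MB-3. The gene lies on chromosome 8 from 34807297 to 34819894.

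Dusp2 (ENSMUSG00000027368), which encodes a nuclear phosphatase found mainly in immune cells, was at 11.4 and 16.4 CPM with DMSO and at 10.6 and 12.8 CPM with MB-3. The groups overlapped, since DMSO replicate 1 lay between the MB-3 libraries. The log2 fold change of -0.24 (SE 0.21) had an edgeR adjusted p of 0.414, and 2 standard errors to each side of it span -0.67 to 0.18, which leaves out a rise of the size seen for Dusp1. Without DMSO replicate 2 the sign turned, with a log2 fold change of 0.05. Dusp5 (ENSMUSG00000034765), whose enzyme is specific for ERK, was at 5.73 and 6.08 CPM with DMSO and at 4.36 and 6.53 CPM with MB-3. The MB-3 libraries lay on either side of the DMSO libraries, and the log2 fold change was -0.12 (SE 0.25, edgeR adjusted p = 0.751), with 2 standard errors from -0.62 to 0.39. Without MB-3 replicate 1 the value of Dusp5 was 0.15. Dusp2 is on chromosome 2 from 127336159 to 127338376 and Dusp5 on chromosome 19 from 53529109 to 53542431.

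The promoters of Dusp1 and Dusp5 are shown because they held the most matches to the motifs searched and belong to nuclear enzymes, of which Dusp1 was called as higher and Dusp5 was not called, a difference that was not tested. The windows run from 250 bases before to 50 bases after the annotated start, are RefSeq sequence of GRCm38.p6 read 5′ to 3′ along the gene, and lie at chr17:26508423-26508722 on the minus strand for Dusp1 and at chr19:53528895-53529194 on the plus strand for Dusp5. Capitals mark motif matches.
Dusp1: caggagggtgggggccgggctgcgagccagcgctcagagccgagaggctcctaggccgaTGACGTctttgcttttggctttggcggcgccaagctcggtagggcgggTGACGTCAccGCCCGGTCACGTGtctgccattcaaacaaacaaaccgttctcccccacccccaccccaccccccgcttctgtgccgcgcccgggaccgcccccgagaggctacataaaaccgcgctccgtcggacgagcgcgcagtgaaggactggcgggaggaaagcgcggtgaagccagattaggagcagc
Dusp5: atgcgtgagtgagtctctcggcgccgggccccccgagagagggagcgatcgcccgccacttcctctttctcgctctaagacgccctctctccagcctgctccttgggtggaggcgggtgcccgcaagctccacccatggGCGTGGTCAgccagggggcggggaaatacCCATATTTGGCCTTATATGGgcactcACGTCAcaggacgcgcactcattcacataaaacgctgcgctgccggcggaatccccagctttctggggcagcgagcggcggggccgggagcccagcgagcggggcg
The Dusp1 window holds the full cyclic AMP response element TGACGTCA, the site of the CREB and ATF factors, at 143 bases before the start, and a second copy of its core TGACGT at 191 bases before the start. Of 32851 promoter windows in the table, 1.79% hold the full element and 7.51% its core, which every full element contains. Dusp1 also has the E-box CACGTG at 126 bases before the start, which overlaps a match to the antioxidant response motif TGACNNNGC at 133 bases before it, and these motifs occur in 7.15% and 12.4% of all windows. The Dusp5 window has a pair of adjacent CArG boxes, the sites of serum response factor, at 82 and 72 bases before the start, a motif found in 1.63% of all windows. Dusp5 also has the core TGACGT at 56 and the antioxidant response motif at 111 bases before the start, both on the other strand. A match describes these letters and does not show that a factor was bound.

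Both cytoplasmic ERK phosphatase genes missed the threshold, and for Dusp6 the MB-3 replicates disagreed. Dusp6 (ENSMUSG00000019960), whose enzyme holds and dephosphorylates ERK in the cytoplasm and whose transcription follows ERK activity in many cells, was at 13.9 and 11.7 CPM with DMSO. With MB-3 it was at 3.41 CPM in replicate 1, from 61 counts, and at 8.31 CPM in replicate 2, from 149 counts. Both MB-3 libraries were below both DMSO libraries, but they differed from each other by 2.44-fold, the widest gap between replicates among the 10 genes. The log2 fold change was -1.13 (SE 0.38) with an edgeR adjusted p of 0.0592. The adjusted p ranged from 0.00333 to 0.179 over 13 alternatives, and Dusp6 was called in 4 of them. It was 0.00333 without MB-3 replicate 2 (log2 fold change -1.91), 0.0812 without MB-3 replicate 1 (-0.63) and 0.0199 with DESeq2. Dusp7 (ENSMUSG00000053716), which encodes the related ERK phosphatase, was at 8.58 and 8.90 CPM with DMSO and at 9.83 and 6.58 CPM with MB-3. Its groups overlapped, with a log2 fold change of -0.09 (SE 0.23, edgeR adjusted p = 0.788) and 2 standard errors from -0.54 to 0.36, and without MB-3 replicate 2 the value was 0.17. Dusp6 is on chromosome 10 from 99263231 to 99267488 and Dusp7 on chromosome 9 from 106368632 to 106375724.

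Of the genes of enzymes that prefer JNK and p38, Dusp16 fell and Dusp10 did not pass. Dusp16 (ENSMUSG00000030203), whose enzyme is known as a JNK phosphatase of macrophages, went from 585 and 422 counts under DMSO to 277 and 237 under MB-3, or 27.3 and 26.4 against 15.5 and 13.2 CPM. Both MB-3 libraries were far below both DMSO libraries. The fall of 1.87-fold (log2 fold change -0.90, SE 0.13, edgeR adjusted p = 0.00248) was called under all 14 alternatives, with log2 fold changes from -1.02 to -0.57. It thus matched in size the rise of Dusp4. Dusp10 (ENSMUSG00000039384), whose enzyme acts on p38 and JNK, was at 5.83 and 6.14 CPM with DMSO and at 5.08 and 4.57 CPM with MB-3. The groups of Dusp10 did not overlap, yet the log2 fold change of -0.31 (SE 0.20, edgeR adjusted p = 0.281) did not pass, and 2 standard errors span -0.71 to 0.10. Dusp16 lies on chromosome 6 from 134715468 to 134792625 and Dusp10 on chromosome 1 from 184013302 to 184075636.

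The atypical enzymes split, with Dusp3 higher and Dusp14 lower. Dusp3 (ENSMUSG00000003518), which encodes a small phosphatase related to an enzyme of vaccinia virus and able to act on ERK and JNK, was at 39.8 and 45.9 CPM with DMSO and at 72.6 and 63.5 CPM with MB-3. It had the most counts of the 10 genes in each library. The MB-3 libraries were above the DMSO libraries by 1.59-fold on average (log2 fold change 0.67, SE 0.12, edgeR adjusted p = 0.00574). Dusp14 (ENSMUSG00000018648), which encodes a small phosphatase known to restrain TAK1 signalling in T cells of mice, was covered by 46 and 32 counts under DMSO and by 9 and 12 under MB-3. This equals 2.14 and 2.01 CPM with DMSO and 0.503 and 0.669 CPM with MB-3, the lowest levels of the 10 genes in every library. The fall was 3.51-fold (log2 fold change -1.81, SE 0.42, edgeR adjusted p = 0.018). From the summed counts of 78 and 21 the ratio of MB-3 to DMSO was 0.273, with an exact 95% binomial interval from 0.160 to 0.447 that covers counting error alone. The adjusted p of Dusp14 was 0.115 without DMSO replicate 1, 0.0743 without DMSO replicate 2, 0.0941 without MB-3 replicate 1 and 0.0557 without MB-3 replicate 2, and over 13 alternatives it ranged from 0.00732 to 0.115. Both genes lie on chromosome 11, Dusp3 from 101971143 to 101987013 and Dusp14 from 84048041 to 84069261. Of the 5 T cell markers 1 was tested, Lck, which fell with MB-3 as given above, and 20.2% of all genes tested were called as lower. The other T cell markers were at 0.501 CPM or less in every library. Their summed counts with DMSO and MB-3 were 11 and 1 for Cd3d, 9 and 10 for Cd3g, 4 and 6 for Trac and 0 and 2 for Cd3e. The part of T cells in the fall of Dusp14 was not tested.

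**Figure D2:**
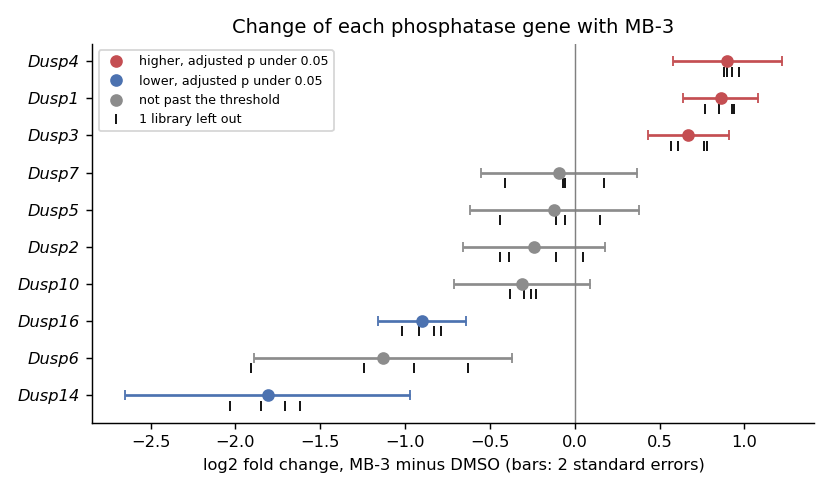
Log2 fold change of each phosphatase gene (MB-3 minus DMSO) from edgeR, with bars of 2 standard errors, and below each point the values with 1 library left out (black ticks). Dusp4, Dusp1 and Dusp3 stay above 0 and Dusp16, Dusp6 and Dusp14 stay below 0 in all ticks, while the ticks of Dusp2, Dusp5 and Dusp7 fall on both sides of 0.

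The promoters of the other called genes with an entry in the table are shown for comparison with that of Dusp1, in the same RefSeq window of GRCm38.p6 and with capitals for motif matches. They lie at chr11:101984742-101985041 for Dusp3, chr6:134792579-134792878 for Dusp16 and chr11:84068308-84068607 for Dusp14, all on the minus strand.
Dusp3: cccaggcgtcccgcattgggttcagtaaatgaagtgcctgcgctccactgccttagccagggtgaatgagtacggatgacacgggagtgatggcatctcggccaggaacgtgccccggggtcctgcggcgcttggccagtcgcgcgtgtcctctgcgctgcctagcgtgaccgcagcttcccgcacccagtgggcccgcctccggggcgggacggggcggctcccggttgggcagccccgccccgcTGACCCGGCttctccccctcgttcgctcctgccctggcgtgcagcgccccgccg
Dusp16: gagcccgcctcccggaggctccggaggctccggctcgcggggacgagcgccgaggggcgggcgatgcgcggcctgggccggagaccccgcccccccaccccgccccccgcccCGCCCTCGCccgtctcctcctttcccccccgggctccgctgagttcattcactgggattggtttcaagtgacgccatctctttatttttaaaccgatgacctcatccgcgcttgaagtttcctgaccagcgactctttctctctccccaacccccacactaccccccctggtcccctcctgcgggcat
Dusp14: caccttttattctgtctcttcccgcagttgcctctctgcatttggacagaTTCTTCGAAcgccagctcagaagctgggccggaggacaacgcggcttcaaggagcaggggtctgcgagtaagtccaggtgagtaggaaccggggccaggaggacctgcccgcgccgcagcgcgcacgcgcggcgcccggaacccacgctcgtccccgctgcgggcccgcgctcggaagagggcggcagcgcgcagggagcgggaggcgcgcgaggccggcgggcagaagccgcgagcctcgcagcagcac
None of these 3 windows holds the core TGACGT that occurs in the windows of Dusp1 and Dusp5. The Dusp3 window has the antioxidant response motif at 4 bases before the start, the Dusp16 window has the EGR motif GCGNGGGCG at 138 bases before the start on the other strand, and the Dusp14 window has the STAT motif TTCNNNGAA at 200 bases before the start. These occur in 12.4%, 5.55% and 8.30% of all windows. The window of Dusp2, which was not called, has the E-box at 109 and the EGR motif at 98 bases before the start. The AP-1 motif TGANTCA, the TATA motif TATAAA and the NF-κB motif were in none of the 9 windows, while they occur in 7.81%, 13.6% and 4.51% of all windows. Both strands were searched for the 10 motifs. The windows of Dusp6, Dusp7 and Dusp10 held no match to any of the 10 motifs, and that says nothing of the factors themselves. The 9 windows had a base content of G and C from 57.3% to 78.7%, each above the median of 52.7% over all windows. Their percentiles among all windows ran from 63.5 for Dusp6 and 73.1 for Dusp10 to 98.6 for Dusp7. Dusp4 is named only.

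**Figure D3:**
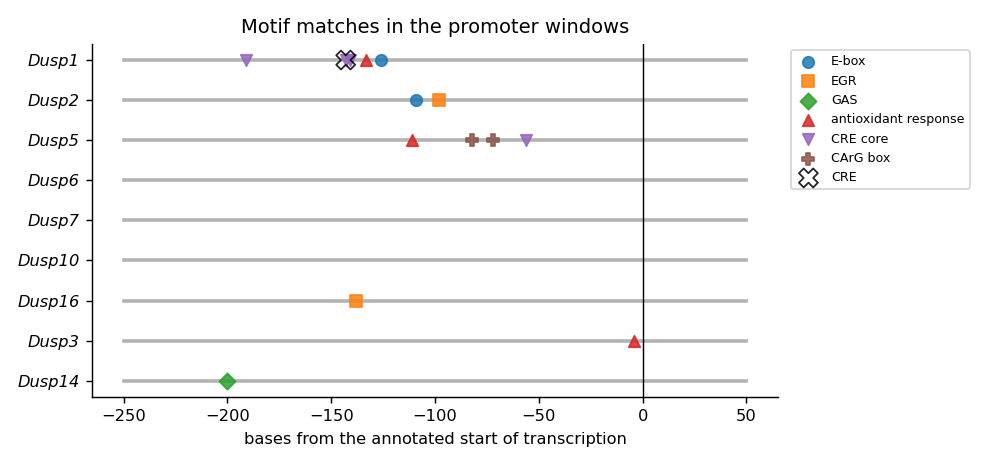
Positions of motif matches in the 9 promoter windows, in bases from the annotated start of transcription, with 1 grey line per gene and 1 symbol per motif. The full cyclic AMP response element is in the Dusp1 window alone, at 143 bases before the start, and 3 windows hold no match.

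The genes also differed in the part of the message that follows the coding region, where the pentamer ATTTA marks AU-rich elements that shorten the life of many cytokine and immediate early messages. In the longest such region annotated in GENCODE M21, Dusp1 had 4 pentamers in 690 bases and Dusp2 had 4 in 581 bases. Per kilobase this gave 5.80 for Dusp1 and 6.88 for Dusp2, at the percentiles 95.7 and 97.3 of 11154 tested genes with such a region, whose median was 1.34. Dusp1 had 2 copies of the longer element TTATTTATT, which binds the decay factor TTP, and none of the other 9 genes had one, while 8.19% of all genes hold it. Dusp3, at 4 pentamers in 3591 bases, Dusp16, at 3 in 2416, and Dusp4, at 2 in 1111, lay at the percentiles 45.0, 47.7 and 60.3 per kilobase. Dusp14 and Dusp7 had 0 pentamers. Dusp1 and Dusp2 were alike in pentamer density but not in the longer element, and of these genes Dusp1 alone was called. The difference between their responses was not tested, and neither was the part of these elements in the changes.

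Levels can be compared between genes only per length. In the deposited FPKM, Dusp3 was the most abundant of the 10 transcripts in every library, at 7.08 and 8.31 with DMSO and 12.4 and 11.3 with MB-3. Dusp1 was at 5.48 and 6.05 FPKM with DMSO and at 10.5 and 9.71 with MB-3, and Dusp14 was the lowest in every library. With DMSO the ranges of Dusp1, Dusp2 (4.82 and 7.08) and Dusp6 (5.02 and 4.29) lay close together, and those of Dusp1 and Dusp2 overlapped. With MB-3 Dusp3 and Dusp1 were above all others, Dusp2 followed at 4.30 and 5.40 FPKM, and Dusp4 at 3.90 and 4.19. By FPKM Dusp6 went from ranks 3 and 4 in the DMSO libraries to ranks 8 and 5 in the MB-3 libraries. By CPM per kilobase of the longest coding transcript its ranks were 5 and 5 with DMSO and 9 and 5 with MB-3. The FPKM values rest on gene lengths that are too long for some genes: the length behind the value of Dusp1 is 5142 bases, while the gene spans 2930 bases with its introns. The same holds for Dusp2, at 2373 against 2218 bases, and for 6.38% of 16708 genes with counts. Set over the longest coding transcript in GENCODE M21, 1990 bases for Dusp1 and 4445 for Dusp3, the order at the top turned, with Dusp1 at 14.1 and 15.3 CPM per kilobase against 8.94 and 10.3 for Dusp3 with DMSO, and 28.1 and 25.0 against 16.3 and 14.3 with MB-3.

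The make-up of the family was shifted to Dusp1 and Dusp3 on both scales. By FPKM, Dusp1 took 16.7% and 16.5% of the summed level of the 10 genes in the DMSO libraries and 27.3% and 24.3% in the MB-3 libraries. By CPM per kilobase of coding transcript its share went from 27.6% and 27.3% to 42.5% and 39.3%. The cytoplasmic ERK pair Dusp6 and Dusp7 went from 20.3% and 16.6% of the summed FPKM to 7.84% and 10.7%. Most of this fall lay in Dusp6, at 15.25% and 11.73% with DMSO and 3.059% and 7.465% with MB-3, and neither gene was called. The JNK and p38 pair Dusp10 and Dusp16 went from 11.5% and 10.6% to 6.62% and 5.83%. The summed FPKM of all 10 was 32.9 and 36.5 with DMSO and 38.5 and 39.96 with MB-3. The groups did not overlap in any of these shares, and no test was made of them.

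**Figure D4:**
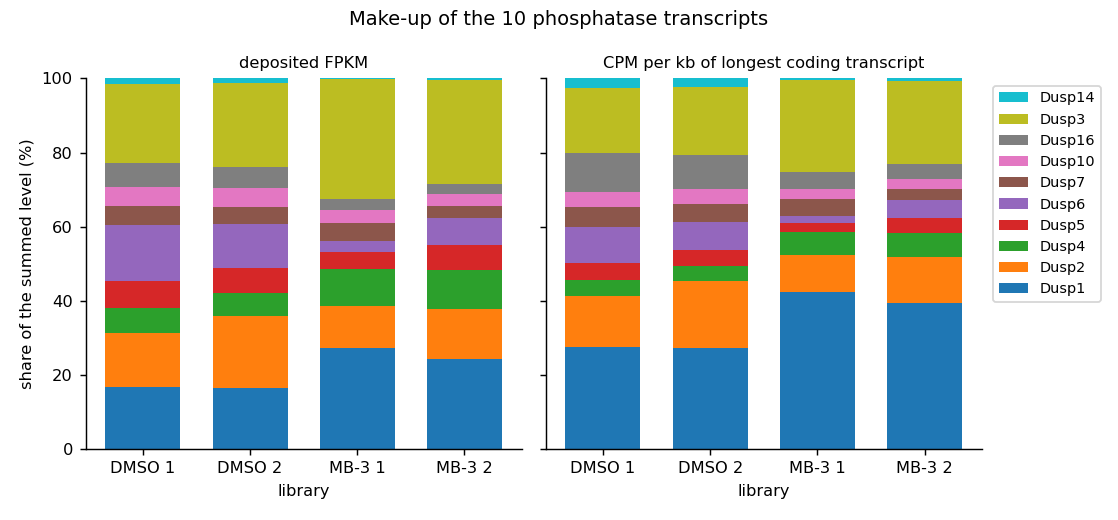
Share of each gene in the summed level of the 10 phosphatase genes in each library, as stacked bars in percent, by deposited FPKM (left) and by CPM per kilobase of the longest coding transcript (right). The Dusp1 band is wider in both MB-3 libraries than in both DMSO libraries on either scale, and the Dusp6 and Dusp16 bands are narrower.

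The genes are scattered over 9 chromosomes. Of the 20 nearest tested genes on either side, 4 rose, 2 fell and 14 missed the threshold, against 37.1% called among all genes. Beside the 5 called phosphatase genes, 4 of 10 neighbours were called, and all 4 had the direction of their phosphatase gene, against 16.9% of all genes called as higher and 20.2% as lower. No test was made of this count. These were Luc7l (log2 fold change 0.53, SE 0.12) and Ergic1 (0.38, SE 0.11) around Dusp1, Saraf (0.53, SE 0.081), 636 kb from Dusp4, and Synrg (-0.54, SE 0.14) beside Dusp14. Luc7l lies 220 kb and Ergic1 53.0 kb from Dusp1, and Synrg lies 3.46 kb from Dusp14. The other called neighbours were Kitl (1.73, SE 0.20) beside Dusp6 and Fahd2a (-1.01, SE 0.28) beside Dusp2. Around Dusp16, Borcs5 at 4.28 kb and Crebl2 at 37.5 kb had log2 fold changes of -0.40 (SE 0.29) and -0.44 (SE 0.16), which did not pass. Tnks, 9.3 kb from Dusp4, and Tada2a, 9.7 kb from Dusp14, were at -0.08 (SE 0.20) and -0.09 (SE 0.21). Around Dusp3, Etv4 was at -2.13 (SE 0.76) and Cd300lg at 0.02 (SE 0.55), and none of these passed either. No tested gene overlapped a phosphatase gene in the deposited coordinates, and the 4 untested genes that did had at most 6 counts in a library.

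In the wider family, of 16 other genes with DUSP or STYX symbols 10 were tested, with 1 higher, 3 lower and 6 not called, a share close to the 37.1% called over all genes, and with a median log2 fold change of 0.20. Dusp8, which encodes a further JNK and p38 phosphatase, was barely detected with DMSO, at 4 and 11 counts, and rose to 70 and 66 counts with MB-3 (log2 fold change 3.18, SE 0.55, edgeR adjusted p = 0.00572). It moved opposite to Dusp16. Dusp22 fell from 13.5 ± 0.265 to 7.45 ± 0.584 CPM, a log2 fold change of -0.85 (SE 0.15), and Dusp28 from 24.2 ± 0.228 to 12.4 ± 2.20 CPM (-0.97, SE 0.15). Without DMSO replicate 2 the number of higher genes in this list was 2.

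Other phosphatases that act on MAP kinases moved little. Of 7 tested genes 1 was higher, 0 lower and 6 not called, beside 37.1% called over all genes. The median log2 fold change was 0.16. Ppm1d, a p53-induced phosphatase of p38, rose from 9.03 ± 0.438 to 15.3 ± 1.04 CPM (0.76, SE 0.14, edgeR adjusted p = 0.00789). The most abundant gene Ppp2ca, the catalytic subunit of protein phosphatase PP2A, had a log2 fold change of 0.20 (SE 0.096) and Ppp2cb of 0.17 (SE 0.077), and neither passed. Without DMSO replicate 2 the number of higher genes was 2, and without MB-3 replicate 1 the median was 0.06.

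Among the kinases that these phosphatases switch off, 2 of 9 tested MAP kinase genes were higher and 3 lower, with a median of -0.34. Over all genes tested 37.1% were called, 16.9% as higher and 20.2% as lower. No test was made of any list as a set. Mapk3, the gene of ERK1, fell from 132 ± 9.23 to 97.5 ± 4.52 CPM, a log2 fold change of -0.44 (SE 0.090), and Mapk9, the gene of JNK2, from 41.7 ± 5.58 to 26.9 ± 2.04 CPM (-0.64, SE 0.13). Mapk7, the gene of ERK5, rose from 9.65 ± 0.264 to 20.7 ± 2.66 CPM (1.10, SE 0.15) and Mapk6 by 0.44 (SE 0.082). The number of lower MAP kinase genes was 1 without DMSO replicate 1 or without MB-3 replicate 2, and the median was -0.17 without DMSO replicate 1. In the list of MAP kinase kinases, 1 of 6 was higher and 1 lower, a share close to that over all genes. Map2k1, the gene of the ERK activator MEK1, fell from 354 ± 21.5 to 142 ± 5.44 CPM (-1.32, SE 0.081, edgeR adjusted p = 8.55e-05). Map2k4, which encodes a JNK activator, rose by 0.36 (SE 0.097), and without DMSO replicate 2 no gene of that list was higher. Map2k5 had a log2 fold change of 0.29 (SE 0.14) and did not pass.

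Upstream, 5 of 14 MAP3 kinase genes were higher and 3 lower, with a median of 0.22, beside 37.1% called over all genes. Map3k11, which encodes an activator of JNK signalling, rose from 34.2 ± 2.05 to 57.8 ± 6.02 CPM (0.76, SE 0.11) and Map3k3 by 0.71 (SE 0.085). Downstream, 2 of 10 kinase genes were higher and 2 lower, a share close to that over all genes. Their median of 0.02 was -0.15 without MB-3 replicate 2. Mapkapk2, the gene of the p38-activated kinase MK2, fell from 849 ± 17.1 to 567 ± 59.7 CPM (-0.58, SE 0.089), and Mapkapk3 fell by 1.02 (SE 0.11). Mknk2 and Rps6ka2, which encode kinases activated by MAP kinases, rose by 1.56 (SE 0.10) and 1.75 (SE 0.15).

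Genes whose transcription follows ERK activity in many cells gave 2 higher and 3 lower of 13 tested. This share was close to the 37.1% called over all genes, and the median of -0.59 was -0.34 without MB-3 replicate 1. Spred1, which encodes an inhibitor of the RAS to ERK pathway, fell from 146 ± 5.52 to 48.1 ± 1.63 CPM (-1.60, SE 0.085), and Ier3 fell by 1.02 (SE 0.095). Fosl1, the gene of the AP-1 subunit FRA1, rose from 0.749 ± 0.00433 to 8.71 ± 1.73 CPM (3.53, SE 0.29) and is also a member of the next list. Of 11 tested AP-1 and GADD45 genes 6 were higher and 2 lower, with a median of 0.40, beside 37.1% called over all genes. Junb fell from 363 ± 2.78 to 74.6 ± 3.63 CPM (-2.28, SE 0.078) and Gadd45b, which encodes a stress protein that activates MAP3 kinases, from 621 ± 50.5 to 207 ± 21.7 CPM (-1.58, SE 0.10). Its relatives Gadd45a and Gadd45g rose by 1.90 (SE 0.11) and 2.24 (SE 0.10).

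Because Dusp1 is known as a target of both CREB and the glucocorticoid receptor, other targets of these factors were set beside it. Of 8 tested CREB targets 4 were higher and 3 lower, beside 37.1% called over all genes. Called genes thus lay on both sides of 0, and the median was -0.06. Pde4b, which encodes a cyclic AMP phosphodiesterase, fell from 73.7 ± 2.11 to 5.05 ± 0.203 CPM (-3.86, SE 0.11). The receptor gene Nr4a3 fell from 12.1 ± 3.39 to 0.502 ± 0.0784 CPM (-4.57, SE 0.34), and the cytokine gene Il10 fell from 13.8 ± 0.00275 to 0.195 ± 0.197 CPM. Of the 4 higher targets, Crem rose from 12.7 ± 0.779 to 34.0 ± 1.73 CPM (1.43, SE 0.11). The number of higher CREB targets was 1 without DMSO replicate 2, without MB-3 replicate 1 or without MB-3 replicate 2, was 2 without DMSO replicate 1, and was 1 with DESeq2. The median was 0.30 without DMSO replicate 1, 1.0 without DMSO replicate 2, 0.52 without MB-3 replicate 1 and -0.29 without MB-3 replicate 2. In that order these medians are over 10, 9, 10 and 9 tested targets, so they do not cover the same genes as the main fit. Of 5 tested glucocorticoid receptor targets 3 were higher and 1 lower, with a median of 0.91, beside 37.1% called over all genes. Sgk1, a kinase gene, rose from 308 ± 12.9 to 665 ± 53.8 CPM (1.11, SE 0.084) and Klf9 from 7.74 ± 0.662 to 14.5 ± 1.08 CPM (0.91, SE 0.15), while Fkbp5, a co-chaperone gene of the receptor, fell by 1.04 (SE 0.11).

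**Figure D5:**
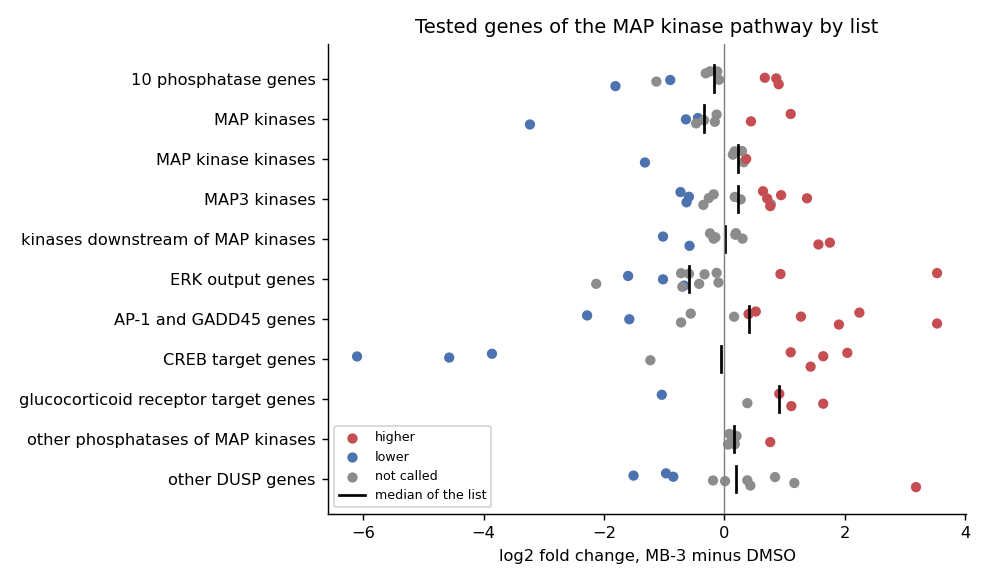
Log2 fold change (MB-3 minus DMSO) of each tested gene, as points coloured by call, for the 10 phosphatase genes and 10 lists of the MAP kinase pathway, with the median of each list as a black line. Called genes lie on both sides of 0 in the row of the phosphatase genes and in 9 of the 10 lists below it, and the list of other phosphatases of MAP kinases has 1 higher and 0 lower.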

How the data were processed

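The authors deposited a table of 34745 genes with a raw count and an FPKM value per library, per the file headers. Per the submitters' processing notes, the builds were mm10 and GRCm38.p4 and the tools were edgeR, HISAT2 and StringTie 1.3.0. The libraries were strand-specific with oligo(dT) enrichment, per the labels' protocols. How reads were assigned to genes is not given in the sources used here. The deposited FPKM values equal count over library total and a gene length within 0.1% in 100% of pairs, so they are no independent measurement. Columns were matched to samples by replicate number and group name or initial.

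The test was that of edgeR 4.0.16, run in R 4.3.3 (filterByExpr, TMM, glmQLFit and glmQLFTest, group as the sole term) on 11841 genes, with Benjamini-Hochberg adjustment and a threshold of 0.05. The biological coefficient of variation was 0.126. The standard error is the absolute log2 fold change over the square root of F. Replicates were not copies, with a chi-square per degree of freedom of 13.0 for DMSO and 11.1 for MB-3. An exact permutation test of 2 against 2 libraries cannot go below 0.333 and was not used. Results were recomputed under 14 other settings, with DESeq2 1.42.0 and limma 3.58.1 among them, and those set on log2(FPKM + 0.1) or log2(FPKM + 1) understate changes of low genes. The filter on low counts was rerun with each library left out, so the tested genes of a list could then differ from those of the main fit. The edgeR, DESeq2 and limma fits were also run on simulated data with the same dispersion for every gene. This was a check of the code and does not cover the spread of single genes in these libraries.

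The 10 pathway lists held 112 genes, 4 of them in 2 lists, and 90 were tested. All 10 phosphatase genes are named. From each list the 3 genes with the smallest p and the most abundant gene are named, as is the most abundant gene of each marker list, except for 1 pathway gene that is not reported here. Of the 20 nearest tested neighbours, those called and those of the called phosphatase genes are named. Other named genes were chosen after their values were seen. Members and lists were chosen with earlier results of these data known. Map3k20 was matched as Zak through its identifier. Promoter windows are RefSeq sequence, present for 9 of the 10 genes, with a single annotated start for each. The windows of Dusp3, Dusp10 and Dusp14 lie inside the deposited bounds of these genes. Starts elsewhere were not searched for motifs.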

Additional observations from a re-analysis of the deposited data

How the results depend on the processing

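Dusp1, Dusp3 and Dusp16 kept their direction and their call under all 14 alternatives. Dusp4 kept both under the 13 alternatives that tested it. Log2 fold changes ran from 0.72 to 0.94 for Dusp1, 0.56 to 0.78 for Dusp3 and 0.64 to 0.97 for Dusp4. The number of lower phosphatase genes was 1 with a filter of at least 10 CPM, which left 4 of the 10 genes in the test, and ran from 1 to 2 with a library left out. Dusp6 was called with DESeq2, without a filter, with the replicate block and without MB-3 replicate 2. Signs turned for 3 genes that were never called: with a library left out, Dusp2 ran from -0.44 to 0.05 (without DMSO replicate 2), Dusp5 from -0.44 to 0.15 (without MB-3 replicate 1) and Dusp7 from -0.41 to 0.17 (without MB-3 replicate 2). Among all genes tested, those called as higher numbered 1283 (without MB-3 replicate 1) to 1802 with a library left out, against 1999. The share of a gene in the family moved beyond its replicate spread in 15 of 20 cases when coding transcript length replaced the length behind FPKM, a choice made after seeing the data. No scaling moved the median of all genes beyond 0.05 on the log2 scale in either direction.

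The labels do not say that equal replicate numbers share an animal or day. Deviations of same-numbered libraries from their group means correlated with r = 0.209 across genes. With the replicate block 2340 genes were higher and 2706 lower, and among the phosphatase genes 3 were higher and 3 lower. At these depths Dusp14 rests on 9 to 46 counts per library, so the size of its fall is loosely set.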
